A study of Mus musculus with 9 samples.

Results

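Interferon-stimulated antiviral genes are the genes that cells switch on after interferon reaches its receptor. The genes described here are 37 named members of that response, picked by symbol out of the 56398 features of the deposited tables, and all 37 were found by their GENCODE M21 symbol. They comprise 4 transcription factors of the pathway, 5 sensors of nucleic acid, 4 IFIT proteins, 5 members of the oligoadenylate synthetase family, both mouse Mx GTPases, 3 members of the ISG15 system, 3 members around ADP-ribosylation, 8 other effectors and 3 small IFI proteins. RNA was sequenced in bulk from 9 samples of BALB/c mice, with 3 libraries per group. AC tumours came from mice that received a mixture of Astragalus and Curcuma phaeocaulis Valeton, in a ratio of 2 to 1, at 6 g/kg daily. Model tumours came from mice that received saline on the same schedule, and sham samples were healthy colon. Both kinds of tumour arose from injected CT26 cells, a colon carcinoma line of BALB/c origin, so that the cancer cells in every tumour descend from 1 cultured line. The sources used here do not state the injection site, the age and sex of the mice or what the sham mice received. Whether each library stands for its own mouse is not stated, so every p-value rests on the variation among these libraries alone, which could be technical.

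Type I interferons signal through the IFNAR1 and IFNAR2 receptor chains and the kinases JAK1 and TYK2. A complex that contains STAT2 and IRF9 then binds a DNA element called the interferon-stimulated response element and turns on genes that sense viral nucleic acid, block translation or degrade viral RNA. Interferon gamma uses other receptor chains and acts mainly through a second element, the gamma-activated site. In the healthy intestine, epithelial cells in particular respond to type III interferon, which binds IFNLR1 paired with IL10RB.

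Promoter windows of the RefSeq genes (GRCm38.p6), each from 250 bases before to 50 after a gene's start, were found for 26 of the 37 genes. Some genes have more than 1 start, so the 26 genes have 30 windows. The core of the interferon-stimulated response element, searched on both strands as GAAA, any 2 bases and GAAA again, stood in 14 of the 30 windows (46.7%), against 1131 of 32851 windows of all genes (3.44%). The letters TTCNNNGAA, a core of the gamma-activated site that reads alike on both strands, stood in 6 of the 30 (20%), against 8.3% of all windows. By gene, the response element core was found in 10 of the 22 genes that were lower in model tumours than in sham colon, in 1 of the 2 that were higher and in both that were not called. The 4 windows below belong to Bst2, the 1 gene with a match that was higher in model tumours, and to the 3 genes with a match that fell furthest. Capitals mark the matches to the response element core, which appears as TTTC, any 2 bases and TTTC where it lies on the other strand, and each run reads 5′ to 3′ along the gene.
Bst2 (chr8:71537423-71537722, minus strand): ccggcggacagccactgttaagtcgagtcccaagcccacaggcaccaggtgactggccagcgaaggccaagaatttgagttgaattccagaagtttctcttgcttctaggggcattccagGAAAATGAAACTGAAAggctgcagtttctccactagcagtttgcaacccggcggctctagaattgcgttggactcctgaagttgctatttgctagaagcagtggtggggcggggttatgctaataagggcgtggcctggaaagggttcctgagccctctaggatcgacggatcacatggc
Ifit1 (chr19:34640639-34640938, plus strand): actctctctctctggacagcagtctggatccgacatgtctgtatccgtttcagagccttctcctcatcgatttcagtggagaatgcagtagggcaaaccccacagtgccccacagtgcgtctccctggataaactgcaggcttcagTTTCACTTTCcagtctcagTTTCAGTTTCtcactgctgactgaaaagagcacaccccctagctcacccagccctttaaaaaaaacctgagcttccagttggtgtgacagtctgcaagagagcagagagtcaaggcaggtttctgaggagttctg
Oas1a (chr5:120907476-120907775, minus strand): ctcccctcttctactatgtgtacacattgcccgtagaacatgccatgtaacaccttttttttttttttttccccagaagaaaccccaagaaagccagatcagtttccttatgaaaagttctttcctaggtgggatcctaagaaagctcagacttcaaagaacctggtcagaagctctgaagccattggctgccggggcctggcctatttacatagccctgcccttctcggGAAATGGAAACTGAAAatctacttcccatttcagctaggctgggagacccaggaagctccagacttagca
Isg15 (chr4:156200769-156201068, minus strand): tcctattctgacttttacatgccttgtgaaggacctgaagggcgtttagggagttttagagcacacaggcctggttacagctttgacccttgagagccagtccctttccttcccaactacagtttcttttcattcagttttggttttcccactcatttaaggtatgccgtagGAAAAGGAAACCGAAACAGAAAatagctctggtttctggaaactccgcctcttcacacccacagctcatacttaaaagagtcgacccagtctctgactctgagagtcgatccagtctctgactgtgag
Bst2 and Oas1a each held 2 overlapping matches, Isg15 held 3 overlapping matches and Ifit1 held 2 separate ones. In Bst2 the gamma-activated letters overlapped the first match. The first match began 130 bases before the start in Bst2, 104 in Ifit1, 20 in Oas1a and 78 in Isg15. A match describes these letters only, since no binding was measured.

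Library totals ran from 15690038 to 23476056 counts, and a floor of 3 counts equals 0.112 to 0.24 CPM. CPM here means counts scaled to library size with TMM factors over all 9 libraries, and it serves to compare 1 gene between libraries. FPKM, which also divides by gene length, is used below only to compare levels between genes. TMM factors were 1.13 to 1.19 in tumours and 0.709 to 0.80 in sham colon. The sham libraries were not alike: sham 1 differed from both others by a chi-square per degree of freedom of 88.6 and 105, against 2.88 between sham 2 and sham 3 and 9.19 to 25.4 between tumours of 1 group. No libraries held identical values, and within each group every pair differed beyond counting error. The tissue labels were checked against 7 epithelial markers, whose summed level was 271 to 823 CPM in AC tumours and 190.1 to 457 CPM in model tumours, against 19084 to 26521 CPM in sham colon. Epcam, which marks epithelium, had 1289 counts in AC tumour 3 and 957 in model tumour 1, against 5 to 20 in the other 4 tumours and 35655 to 39675 in sham colon. Of the 6 tumours, only AC tumour 3 and model tumour 1 thus held Epcam above trace level.

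Most of the antiviral genes were lower in tumours than in healthy colon. In model tumours against sham colon, 30 of the 37 were lower and 3 were higher by edgeR's quasi-likelihood test at an adjusted p under 0.05. Among all 18228 genes tested there, 32.9% were lower and 36.8% were higher. In AC tumours against sham colon, 30 were lower and 2 were higher, beside 32.7% lower and 35.5% higher among 17832 genes. The median log2 fold change of the 37 genes was -1.53 in model tumours and -1.88 in AC tumours, each against sham colon, while the medians over all tested genes were 0.12 and 0.10. In both comparisons 30 genes had all tumours below all sham libraries and 3 had all tumours above. Among all genes these shares were 35.6% below and 41.3% above for model tumours, and 35.3% and 40.5% for AC tumours. In AC tumours 29 genes were at least 2-fold lower and 18 at least 4-fold lower, and in model tumours 26 and 11. The shares of all genes at these folds were not computed. Both comparisons use the same 3 sham libraries, so the second is no independent repeat of the first. Together the 37 genes took 0.228 to 0.279% of all counts in AC tumours and 0.283 to 0.296% in model tumours, against 0.56 to 0.587% in sham colon. In bulk tissue, fewer cells that express a gene and less RNA of it per cell cannot be told apart. Markers of many cell types also differed between tumour and colon, epithelial ones among them, and their part in the results was not tested. Without scaling factors the median over all genes moved to 0.72 in model and 0.75 in AC tumours against sham colon. Among all genes, 4405 of 18228 were lower and 9060 higher in model tumours, and 4114 of 17832 were lower and 8832 higher in AC tumours. Then 24 and 28 of the 37 were lower and 6 were higher in each, with medians of -0.93 and -1.22, which is -1.65 and -1.97 relative to all genes. The calls lost with that setting were those of Ifit3 and Usp18 in both kinds of tumour and of Stat2, Mx1, Xaf1 and Cmpk2 in model tumours (edgeR adjusted p from 0.0529 to 0.732).

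**Figure D1:**
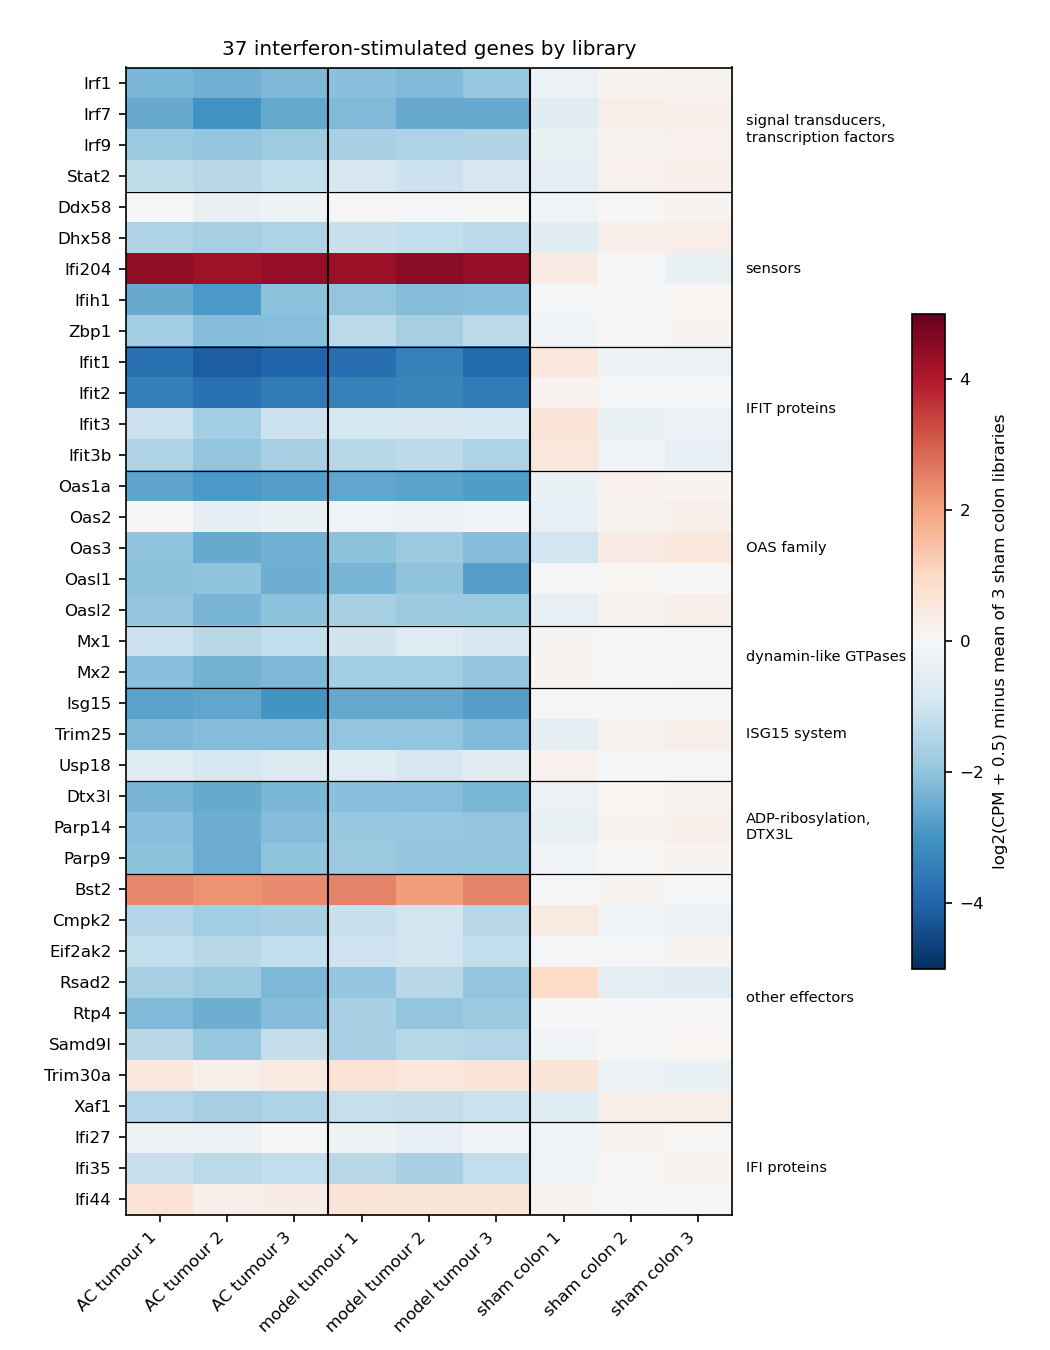
Level of each of the 37 genes (rows, by role) in the 9 libraries (columns, AC tumours, model tumours, then sham colon), as log2(CPM + 0.5) minus the gene's mean over the 3 sham libraries. Most rows are below 0 (blue) in the 6 tumour columns, while those of Ifi204, Bst2, Ifi44 and Trim30a are above 0 (red).

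**Figure D2:**
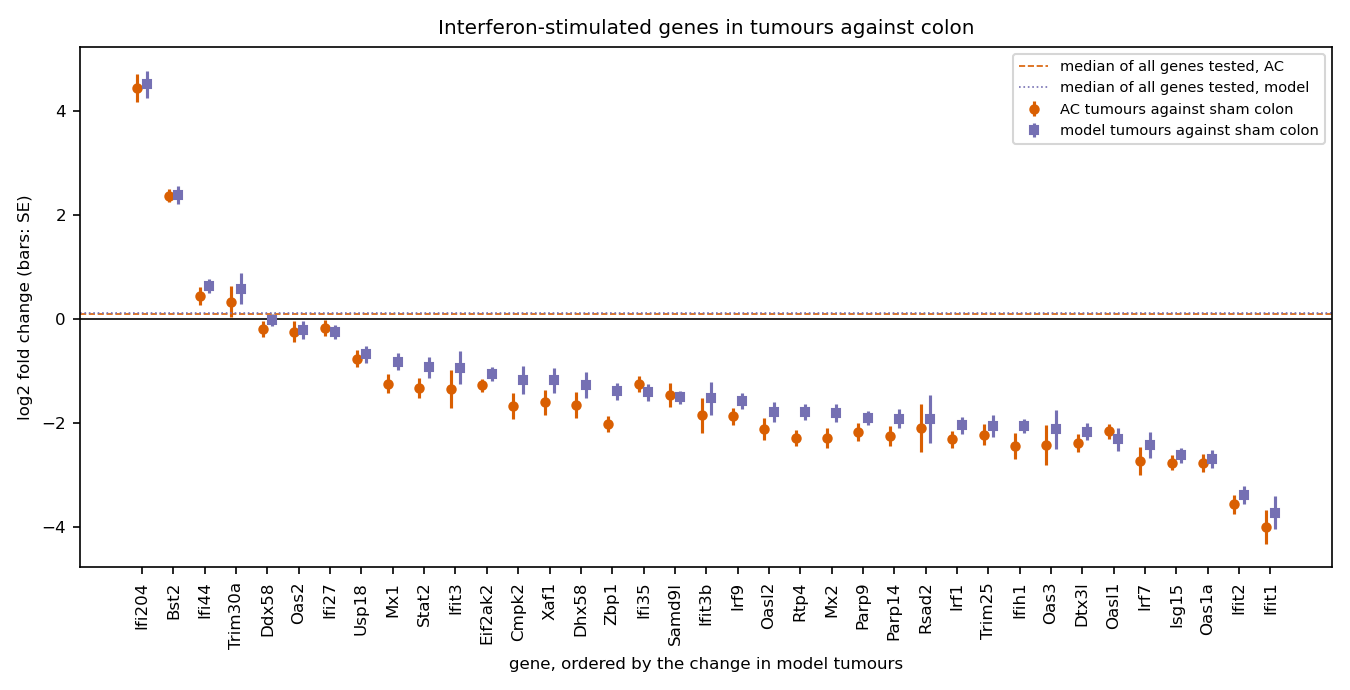
Log2 fold change against sham colon for each of the 37 genes (x axis) in AC and in model tumours, with bars of 1 standard error from edgeR on 3 libraries per group and lines at the medians over all genes. The values run from -4.00 for Ifit1 in AC tumours to 4.51 for Ifi204 in model tumours, and the 2 tumour groups lie near each other for each gene.

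All 4 transcription factors were lower in both kinds of tumour. Irf1, a factor induced by type I and type II interferon (chromosome 11, 53770014 to 53778374), had 93.2, 87.6 and 96.9 CPM in AC tumours and 108, 99.2 and 125 CPM in model tumours, against 375, 501 and 516 CPM in sham colon. Every tumour lay below every sham library, with sham 1 the lowest of the sham samples. The log2 fold change was -2.32 ± 0.16 (SE) in AC tumours (edgeR adjusted p = 7.58e-05) and -2.05 ± 0.17 in model tumours (adjusted p = 9.98e-05). Irf7, the main driver of interferon alpha transcription (chromosome 7, 141262706 to 141266481), had 55.8, 39.5 and 54.1 CPM in AC tumours and 69.6, 56.4 and 56.4 CPM in model tumours, against 224, 399 and 384 CPM in sham colon. The groups of tumours were again wholly below sham colon, and AC tumour 2 was the lowest library. Its log2 fold change was -2.74 ± 0.27 in AC tumours (adjusted p = 0.00025) and -2.43 ± 0.25 in model tumours (adjusted p = 0.000239). Irf9 and Stat2 moved the same way. Irf9, the DNA-binding subunit of their complex, changed by -1.88 in AC and -1.58 in model tumours on the log2 scale, and Stat2 by -1.33 and -0.93. Of these calls, only that of Stat2 in model tumours was lost without scaling factors, at -0.32.

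Of the 5 sensors, 3 were lower, 1 was higher and 1 was not called in each kind of tumour. Zbp1, which binds Z-form nucleic acid and can start necroptosis (chromosome 2, 173206612 to 173218923), had 59.1, 43.8 and 45.2 CPM in AC tumours and 80.9, 62.6 and 81.4 CPM in model tumours, against 179.9, 204 and 217 CPM in sham colon. No tumour reached the lowest sham library. The log2 fold change was -2.02 ± 0.16 in AC tumours (edgeR adjusted p = 0.000109) and -1.40 ± 0.15 in model tumours (adjusted p = 0.000334). Ifih1, the long double-stranded RNA sensor MDA5, changed by -2.44 and -2.06 in AC and model tumours. Dhx58, the regulator LGP2 of that family, changed by -1.66 and -1.28. Ddx58, the RNA sensor RIG-I, was the exception within the family: it had 64.6 to 83.8 CPM in AC tumours and 78.3 to 83.3 CPM in model tumours, against 72.6 to 92.0 CPM in sham colon. These ranges overlapped, and its log2 differences of -0.19 ± 0.15 and -0.02 ± 0.12 did not pass the test (adjusted p = 0.276 and 0.88). The result depended on the setting. Without scaling factors Ddx58 was called higher in both, at 0.46 (adjusted p = 0.0255) and 0.59 (adjusted p = 0.00304), and without sham 1 it was called lower in AC tumours, at -0.36 (adjusted p = 0.0312). Over all settings the adjusted p ran from 0.0255 to 0.714 in AC and from 0.00304 to 0.92 in model tumours.

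Ifi204 was the gene with the largest difference of all 37, and it was higher in both kinds of tumour. This gene of the mouse PYHIN family encodes a protein that binds DNA (chromosome 1, 173747293 to 173766943). It had 121, 107 and 118 CPM in AC tumours and 113, 128 and 119 CPM in model tumours, against 7.0, 4.97 and 3.89 CPM in sham colon. The tumour libraries lay close together and far above sham colon. The log2 fold change was 4.44 ± 0.27 in AC tumours (edgeR adjusted p = 5.58e-05) and 4.51 ± 0.27 in model tumours (adjusted p = 3.61e-05), which is 21.8-fold and 22.8-fold. Its transcripts share 20% of their 50-base words with other genes, 14.8% with Ifi211, so reads may be split between PYHIN genes. Summed markers of macrophages, 6 in all, stood at 611 to 1013 CPM in AC and 533 to 745 CPM in model tumours, against 34.4 to 40.6 CPM in sham colon. Their part in the difference was not tested.

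The IFIT proteins, which bind viral RNA and hold back its translation, contained the largest falls. All 4 were lower in both kinds of tumour, with medians of -2.71 in AC and -2.46 in model tumours on the log2 scale. The genes lie side by side on chromosome 19, from Ifit2 (34550694 to 34576419) to Ifit1 (34640871 to 34650009). Ifit1, which recognises RNA lacking cap methylation, had 34.6, 26.0 and 29.3 CPM in AC tumours and 32.6, 43.2 and 31.8 CPM in model tumours, against 668, 383 and 380.2 CPM in sham colon. All sham libraries were far above the tumours, and sham 1 was the highest. The log2 fold change was -4.00 ± 0.32 in AC tumours (edgeR adjusted p = 0.000123) and -3.73 ± 0.32 in model tumours (adjusted p = 0.000123), which is 16.0-fold and 13.3-fold lower. Ifit2 had 62.1, 51.1 and 58.3 CPM in AC tumours and 63.9, 67.7 and 59.7 CPM in model tumours, against 754, 634 and 643 CPM in sham colon. Its libraries varied little within a group, and it was 11.8-fold lower in AC tumours (log2 -3.57 ± 0.18, adjusted p = 3.87e-05) and 10.5-fold lower in model tumours (-3.40 ± 0.17, adjusted p = 2.47e-05). Ifit3 and Ifit3b changed less, by -1.36 and -1.86 in AC tumours and by -0.94 and -1.53 in model tumours. These close copies share 51.2% and 44.5% of their 50-base words with each other, so their separate values are uncertain. The Ifit3 call in model tumours (adjusted p = 0.0342) was lost when any 1 model tumour was left out, with adjusted p from 0.0851 to 0.112, and ranged from 0.00228 to 0.378 over all settings tried. Its call in AC tumours (adjusted p = 0.0157) was lost without AC tumour 2 (adjusted p = 0.058), with a range from 0.000839 to 0.128 over all settings.

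In the oligoadenylate synthetase family, whose catalytically active members make activators of RNase L, 4 of the 5 genes were lower in each kind of tumour. Oas1a (chromosome 5, 120896256 to 120907521) had 39.8, 33.9 and 36.3 CPM in AC tumours and 41.3, 38.7 and 35.4 CPM in model tumours, against 199, 286 and 273 CPM in sham colon. The tumours did not overlap with sham colon, and the log2 fold change was -2.77 ± 0.17 in AC tumours (edgeR adjusted p = 5.51e-05) and -2.69 ± 0.18 in model tumours (adjusted p = 4.66e-05). Oas1a shares 57.6% of its 50-base words with Oas1g, which was lower too, by -2.31 and -2.34, and the split of reads between the pair is uncertain. Oasl1, which in mouse restrains the translation of Irf7, had 46.0, 47.4 and 34.5 CPM in AC tumours and 37.7, 47.2 and 28.3 CPM in model tumours, against 181, 202 and 189.9 CPM in sham colon. All tumours were below all sham libraries, with log2 fold changes of -2.16 ± 0.14 and -2.32 ± 0.21 in AC and model tumours (adjusted p = 6.84e-05 and 0.000157). Oasl2 had 138, 108 and 129 CPM in AC tumours and 169, 150.3 and 147 CPM in model tumours, against 409, 599 and 634 CPM in sham colon. It was lower in every tumour, by -2.12 ± 0.21 in AC and -1.79 ± 0.19 in model tumours (adjusted p = 0.000243 and 0.000315). Oas3 changed by -2.43 and -2.13, but sham 1 held only 116 CPM of it, against 297 and 328 CPM in sham 2 and 3. Oas2 was not called: its log2 differences were -0.25 ± 0.20 in AC and -0.21 ± 0.17 in model tumours, and without scaling factors 0.41 in both. Without sham 1 it was called lower in both, at -0.50 and -0.37, and over all settings the adjusted p ran from 0.0185 to 0.691 in AC and from 0.00402 to 0.623 in model tumours.

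Both Mx genes, dynamin-like GTPases that trap viral components and of which many inbred mouse strains carry defective alleles, were lower in tumours. Mx1 (chromosome 16, 97447035 to 97462907) had 16.6, 13.2 and 14.9 CPM in AC tumours and 17.5, 22.4 and 19.4 CPM in model tumours, against 38.9, 33.6 and 33.3 CPM in sham colon. Mx2 had 8.60, 6.92 and 7.66 CPM in AC tumours and 11.3, 11.1 and 9.64 CPM in model tumours, against 41.4, 37.5 and 35.0 CPM in sham colon. Neither gene overlapped between tumours and colon. The log2 fold changes of Mx1 were -1.24 ± 0.18 in AC and -0.82 ± 0.17 in model tumours (edgeR adjusted p = 0.00119 and 0.00419), and those of Mx2 were -2.29 ± 0.19 and -1.81 ± 0.18 (adjusted p = 0.000131 and 0.000202). Without scaling factors the Mx1 call in model tumours was lost, at -0.22.

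The ISG15 system was lower throughout. Isg15, a ubiquitin-like protein attached to new proteins (chromosome 4, 156199424 to 156200818), had 25.6, 27.4 and 20.5 CPM in AC tumours and 27.9, 27.6 and 24.5 CPM in model tumours, against 173, 159.6 and 168 CPM in sham colon. The sham libraries agreed closely for this gene, all tumours lay well under them, and it was 6.82-fold lower in AC tumours (log2 -2.77 ± 0.14, edgeR adjusted p = 4.13e-05) and 6.18-fold lower in model tumours (-2.63 ± 0.14, adjusted p = 2.7e-05). Trim25, the ubiquitin ligase that acts on RIG-I, had 129, 136 and 137 CPM in AC tumours and 156, 159 and 135 CPM in model tumours, against 452, 708 and 741 CPM in sham colon. Its lowest sham library, sham 1, still exceeded every tumour, and the log2 fold change was -2.23 ± 0.20 in AC and -2.05 ± 0.21 in model tumours (adjusted p = 0.000192 and 0.000259). Usp18, which removes ISG15 and damps the type I receptor, changed least of the system, by -0.76 and -0.68 (adjusted p = 0.00642 and 0.0096), and neither call held without scaling factors, at -0.12 and -0.07.

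Parp9, Dtx3l and Parp14 lie within 1 stretch of chromosome 16 (35832874 to 35972605) and were lower together. PARP9 and the ubiquitin ligase DTX3L form a complex, and PARP14 attaches single ADP-ribose units. Dtx3l had 70.9, 62.6 and 73.3 CPM in AC tumours and 83.6, 82.5 and 72.9 CPM in model tumours, against 294, 386 and 413 CPM in sham colon. Parp9 had 67.5, 50.4 and 69.3 CPM in AC tumours and 78.0, 73.1 and 73.5 CPM in model tumours, against 248, 296 and 308 CPM in sham colon. Both stayed apart from sham colon in all 6 tumours. Dtx3l changed by -2.39 ± 0.17 in AC and -2.17 ± 0.17 in model tumours (edgeR adjusted p = 7.81e-05 in both), and Parp9 by -2.18 ± 0.18 and -1.90 ± 0.13 (adjusted p = 0.00014 and 5.51e-05). Their exons overlap by 458 bases on opposite strands, and no source used here states the strand setting of the counting, so some reads cannot be assigned. Parp14 changed by -2.26 and -1.92.

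The 8 other effectors held 6 genes that were lower, 1 that was higher and 1 that was not called. Bst2, or tetherin, which holds budding virus at the cell surface (chromosome 8, 71534255 to 71537456), had 150.4, 134 and 146 CPM in AC tumours and 156, 118 and 156 CPM in model tumours, against 26.5, 30.5 and 26.3 CPM in sham colon. Every tumour was above every sham library. It was 5.18-fold higher in AC tumours (log2 2.37 ± 0.13, edgeR adjusted p = 4.71e-05) and 5.23-fold higher in model tumours (2.39 ± 0.17, adjusted p = 6.1e-05). Samd9l, an inhibitor of translation and cell growth, had 177, 124 and 205 CPM in AC tumours and 149, 172 and 169.7 CPM in model tumours, against 430.1, 475 and 505 CPM in sham colon. The AC tumours spread most widely, yet all tumours were below sham colon, and the log2 fold changes were -1.46 ± 0.22 in AC and -1.51 ± 0.13 in model tumours (adjusted p = 0.00145 and 0.000105). The other 5 that were lower changed by -1.28 to -2.29 in AC tumours and by -1.06 to -1.93 in model tumours. They were Rtp4, a restrictor of flavivirus replication, Rsad2, or viperin, Cmpk2, a nucleotide kinase next to Rsad2 on chromosome 12, Xaf1, a promoter of apoptosis, and Eif2ak2, the kinase PKR. Rtp4 shares 11.6% of its 50-base words with Gm45338, so its reads may be split. The Xaf1 and Cmpk2 calls in model tumours did not hold without scaling factors, at -0.57 and -0.58. Rsad2 varied most between sham libraries, with 209.5, 80.0 and 76.1 CPM, and without sham 1 its change was -1.51 in AC and -1.24 in model tumours, against -2.10 and -1.93 with it. Trim30a was not called, at 0.34 in AC and 0.58 in model tumours, and sham 1 held 105 CPM of it, against 55.8 and 54.7 CPM in the other sham libraries. It was called higher in both without sham 1, at 0.66 and 0.99, and without scaling factors, at 0.97 and 1.17, and over all settings the adjusted p ran from 0.00145 to 0.661 in AC and from 1.59e-05 to 0.333 in model tumours.

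The 3 small IFI proteins did not move as a group. Ifi35 (chromosome 11, 101448407 to 101458698), a partner of NMI, had 25.5, 21.3 and 23.2 CPM in AC tumours and 20.9, 17.7 and 23.6 CPM in model tumours, against 48.0, 58.7 and 61.4 CPM in sham colon. It was lower in all tumours, by -1.26 ± 0.15 in AC and -1.41 ± 0.16 in model tumours (edgeR adjusted p = 0.000526 and 0.000388), although 10.4% of its 50-base words are shared with the antisense gene Gm11626. Ifi44 had 94.5, 69.7 and 76.9 CPM in AC tumours and 93.7, 90.1 and 90.2 CPM in model tumours, against 64.5, 54.5 and 58.7 CPM in sham colon. Tumours and colon did not overlap, and Ifi44 was higher in model tumours (0.64 ± 0.13, adjusted p = 0.00491), while in AC tumours the difference of 0.44 ± 0.17 just missed the threshold (adjusted p = 0.0506). Over all settings tried that adjusted p ran from 0.00171 to 0.155, and Ifi44 was called higher there without sham 1 (adjusted p = 0.0257), without AC tumour 2 (0.037), with upper-quartile factors, without factors, without the filter, with all 9 libraries in 1 fit and with the replicate block. Ifi27, a mitochondrial protein, had 56.9, 54.2 and 66.5 CPM in AC tumours and 56.1, 51.1 and 60.9 CPM in model tumours, against 57.6, 74.5 and 70.6 CPM in sham colon. The groups overlapped, and its differences of -0.18 ± 0.15 and -0.25 ± 0.14 were not called (adjusted p = 0.332 and 0.142). Without scaling factors Ifi27 was called higher in both, at 0.47 and 0.36 (adjusted p = 0.023 and 0.0465), and without sham 1 lower in both, at -0.36 and -0.34 (adjusted p = 0.0231 and 0.0122). Over all settings its adjusted p ran from 0.023 to 0.729 in AC and from 0.0122 to 0.439 in model tumours.

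The order of the genes by level per length also differed between tumour and colon. By mean FPKM, Bst2 led in AC tumours (186 ± 13.2, SD, n = 3) and in model tumours (182 ± 30.0), whereas in sham colon it stood at 22.9 ± 2.05, rank 22 of the 37. Ifi27, Isg15 and Ifi204 followed in tumours, at 37.9 to 47.3 FPKM in AC and 38.7 to 43.9 FPKM in model tumours. Isg15 and Ifi204 did not differ beyond their SDs in either kind of tumour. In sham colon Isg15 was first (165 ± 15.9 FPKM), followed by Ifit1 (136 ± 56.7), Ifit2 (129 ± 21.3) and Oas1a (99.2 ± 13.3). Ifit1 and Ifit2 could not be told apart within their SDs. Ifi204 was the lowest of the 37 in sham colon (1.12 ± 0.41 FPKM), and Mx2 the lowest in AC tumours (2.5 ± 0.30) and model tumours (3.39 ± 0.25).

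The receptors were examined next, from a list of 6 chains. In each kind of tumour 4 were lower than in sham colon, 1 was higher and 1 was not called. The shares among all genes were 32.7% lower and 35.5% higher in AC tumours, and 32.9% and 36.8% in model tumours. Ifngr1, the ligand-binding chain for interferon gamma, had 69.9, 58.8 and 66.4 CPM in AC tumours and 57.6, 51.0 and 62.8 CPM in model tumours, against 494, 503 and 533 CPM in sham colon. Its partner Ifngr2 had 58.1, 54.8 and 55.1 CPM in AC tumours and 48.5, 45.4 and 47.2 CPM in model tumours, against 358, 386 and 381 CPM in sham colon. Both chains were well below sham colon in every tumour, by -2.97 ± 0.14 and -2.74 ± 0.12 in AC tumours and by -3.14 ± 0.14 and -2.98 ± 0.13 in model tumours (edgeR adjusted p from 1.81e-05 to 3.3e-05). For type III interferon, Ifnlr1 had 4, 5 and 36 counts in AC tumours and 25, 3 and 1 in model tumours, against 575, 679 and 770 in sham colon. The higher tumour counts were those of AC tumour 3 and model tumour 1, the libraries that also held Epcam, and the log2 fold changes were -5.99 ± 0.83 and -6.93 ± 0.79 (adjusted p = 0.000979 and 0.000378). Without AC tumour 3 the value in AC tumours was -7.74, and without model tumour 1 that in model tumours was -8.92, with both calls kept. Il10rb, its partner, was lower by -1.86 ± 0.14 in AC and -2.25 ± 0.13 in model tumours (adjusted p = 9.35e-05 and 3.17e-05). For type I interferon, Ifnar2 was higher, with 24.4, 29.0 and 25.7 CPM in AC tumours and 22.9, 23.5 and 21.5 CPM in model tumours, against 9.17, 4.01 and 5.38 CPM in sham colon. The groups were apart, with log2 fold changes of 2.08 ± 0.35 and 1.88 ± 0.34 (adjusted p = 0.00212 and 0.00271). Ifnar1 was not called, at -0.16 in both kinds of tumour, though without sham 1 it was called lower (-0.36 and -0.28) and without scaling factors higher (0.50 and 0.45). Over all settings its adjusted p ran from 0.00697 to 0.664 in AC and from 0.0165 to 0.673 in model tumours.

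**Figure D3:**
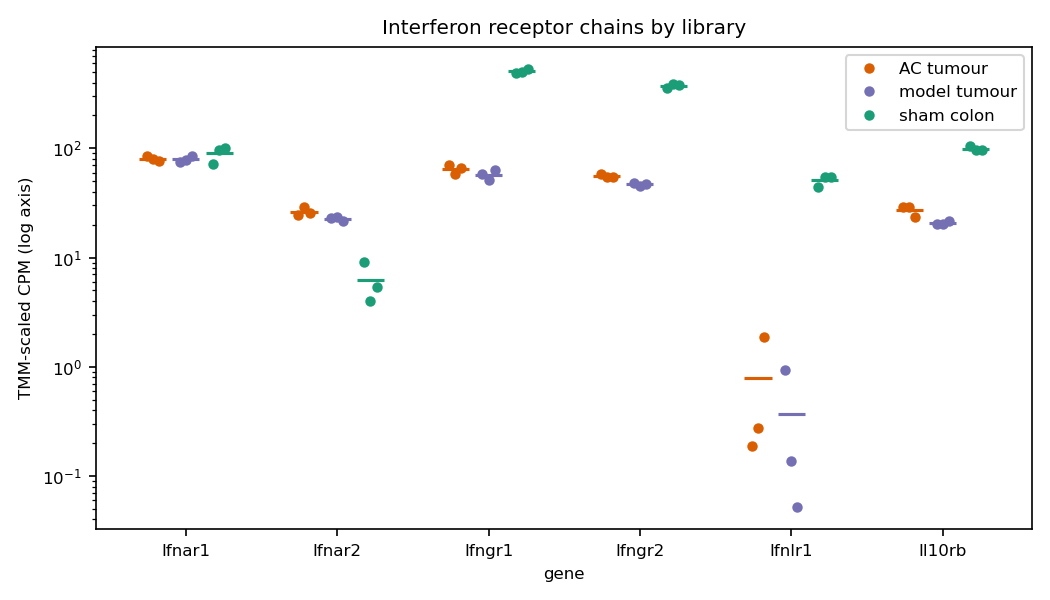
CPM on a log axis for the 6 interferon receptor genes in each of the 9 libraries, with AC tumours, model tumours and sham colon side by side. Ifngr1, Ifngr2, Ifnlr1 and Il10rb are lower in all tumours, Ifnar2 is higher, and Ifnar1 overlaps.

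Transcripts of the ligands themselves were at the edge of detection. Of 11 interferon genes listed, Ifna1, Ifna2, Ifna4 and Ifnab had no count in any library, which allows up to 3 counts each. Ifnb1 had 1, 0 and 4 counts in AC tumours and 3, 1 and 1 in model tumours, against 0 in every sham library. Ifng, the product of T and NK cells, had 8, 9 and 6 counts in AC tumours and 17, 11 and 18 in model tumours, against 4, 1 and 0 in sham colon. Counts were highest in model tumours, but in CPM the lowest model tumour (0.5002) hardly differed from the highest AC tumour (0.498). In model tumours the log2 fold change against sham colon was 2.37 ± 0.80 (edgeR adjusted p = 0.0345). That call was lost without model tumour 2 or 3 or without sham 2 or 3 (adjusted p from 0.0605 to 0.116). It was also lost with the replicate number as a block (adjusted p = 0.0785). Without sham 1 the value was 3.99. The gene was too low to be tested in the comparisons with AC tumours. The type III genes Ifnl2 and Ifnl3 had no count in any tumour and 0 to 5 counts in sham libraries. Ifnk had 0 to 4 counts across all libraries, and Ifna5 and Ifne had 1 and 2 counts, all in model tumour 1.

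Further parts of the pathway were described by the same counts, to be read beside the shares among all genes of 35.5% higher and 32.7% lower in AC tumours and 36.8% and 32.9% in model tumours. Of 10 JAK-STAT transducers and inhibitors, 1 was higher and 5 were lower in AC tumours, and 1 was higher and 3 were lower in model tumours. Jak2, a kinase of the interferon gamma receptor, changed by -1.51 ± 0.12 in AC and -1.26 ± 0.13 in model tumours. Stat3 changed by -0.92 ± 0.13 and -0.68 ± 0.18, calls that did not hold without scaling factors, and the inhibitor Socs3 by 0.79 ± 0.22 and 0.98 ± 0.16. The Socs3 call in AC tumours was lost without AC tumour 1 or 2 and without sham 1 or 3 (adjusted p from 0.0566 to 0.0603).

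Of 16 sensors, adaptors and kinases upstream of interferon, 15 were tested, and in each kind of tumour 5 were higher and 7 were lower than in sham colon. The share that was higher is close to that among all genes. Cgas, the DNA sensor that makes cyclic GMP-AMP, had 30.2, 34.6 and 32.7 CPM in AC tumours and 30.2, 27.6 and 35.7 CPM in model tumours, against 4.90, 6.49 and 6.02 CPM in sham colon. It was higher in all tumours (2.49 ± 0.18 and 2.44 ± 0.19, edgeR adjusted p = 8.81e-05 and 8.03e-05). Ticam1, the adaptor of TLR3, was lower by -2.08 and -2.24. Aim2, a DNA sensor of the inflammasome, had 26.9, 37.1 and 95.4 CPM in AC tumours and 53.5, 50.2 and 46.4 CPM in model tumours, against 149, 148 and 152 CPM in sham colon. It was lower in both, at -1.47 ± 0.48 (adjusted p = 0.0319) and -1.56 ± 0.13 (adjusted p = 0.0001), with AC tumour 3 nearest to sham colon. The call in AC tumours was lost without AC tumour 1, AC tumour 2 or any 1 sham library (adjusted p from 0.0531 to 0.108), without the filter on low counts (adjusted p = 0.066) and without scaling factors (-0.84, adjusted p = 0.144). Without AC tumour 3 the value was -2.22, and over all settings the adjusted p ran from 0.000447 to 0.144.

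A further list of 34 interferon-stimulated genes outside the 37 was called about as often as all genes in each direction. In AC tumours 11 were higher and 11 were lower, with a median log2 fold change of -0.22, and in model tumours 12 were higher and 11 were lower, with a median of 0.07. Among all genes 35.5% were higher and 32.7% lower in AC tumours, and 36.8% and 32.9% in model tumours. Ifitm3, which blocks entry of enveloped viruses, had 334, 262 and 264 CPM in AC tumours and 332, 252 and 317 CPM in model tumours, against 23.5, 25.6 and 28.1 CPM in sham colon. It was higher in all tumours, by 3.48 ± 0.15 in AC and 3.57 ± 0.17 in model tumours (edgeR adjusted p = 2.87e-05 and 2.29e-05), and its relative Ifitm1 by 3.04 ± 0.36 and 3.25 ± 0.19. Ddx60, a helicase, was lower by -3.13 ± 0.33 and -2.54 ± 0.14. The chemokine genes Cxcl9 and Cxcl10, which draw T cells and are named here after their values were seen, were higher, by 3.18 and 2.84 in AC tumours and by 3.84 and 3.04 in model tumours.

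**Figure D4:**
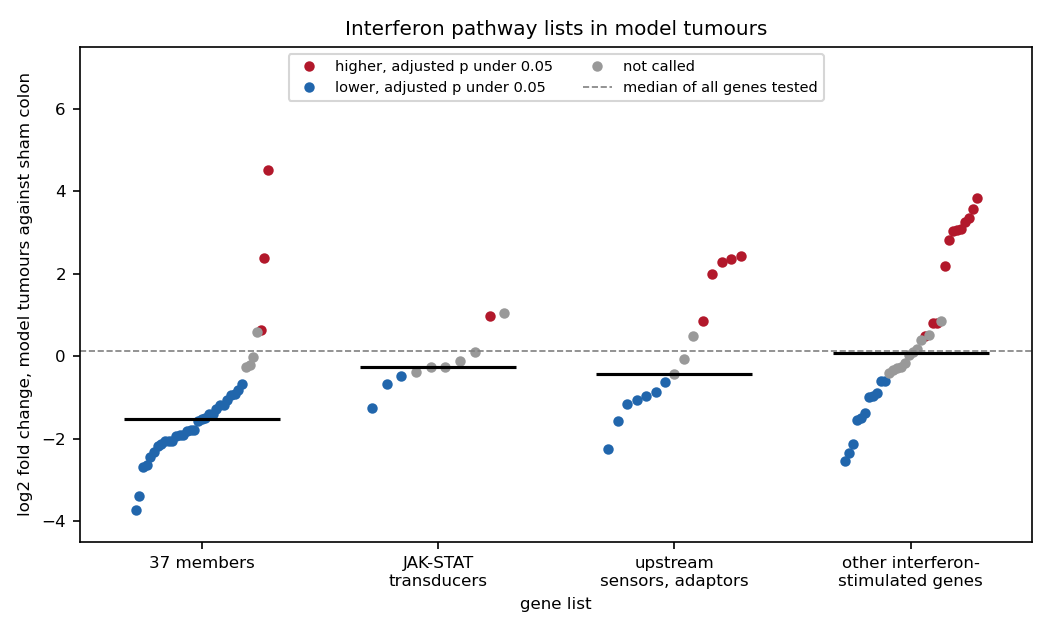
Log2 fold change in model tumours against sham colon for each tested gene (points) of the 37 antiviral genes and of the lists of JAK-STAT genes, upstream sensors and other interferon-stimulated genes, with the median of each list as a line. The 37 antiviral genes have a median of -1.53 and the other interferon-stimulated genes a median of 0.07, beside 0.12 over all genes.

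AC tumours were then set against model tumours, the comparison that addresses the treatment. None of the 37 genes, and none of the 17137 genes tested (0%), passed an adjusted p of 0.05 in edgeR. At an unadjusted edgeR p under 0.05, 13 of the 37 were lower in AC tumours, beside 7.33% of all genes that were lower at that p. No gene of the 37 was higher at that p, and the share of all genes that were higher there was not computed. For DESeq2, 33023 genes had a count in these libraries, but how many of them received an adjusted p was not recorded. DESeq2 called 289 genes (213 lower and 76 higher), among them 2 of the 37, both lower in AC tumours. These were Zbp1 (-0.60, adjusted p = 0.0172, against 0.0172 to 0.924 over all settings) and Stat2 (-0.39, adjusted p = 0.0488, against 0.0488 to 0.929). Zbp1 had 59.1, 43.8 and 45.2 CPM in AC tumours, against 80.9, 62.6 and 81.4 CPM in model tumours. Stat2 had 80.9, 74.1 and 83.1 CPM in AC tumours, against 109, 92.9 and 109.7 CPM in model tumours. For both genes, every AC tumour was below every model tumour.

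The differences between AC and model tumours were small and mostly of 1 sign. Of the 37 genes, 33 had a log2 fold change below 0, beside 48.6% of all genes, and the median was -0.26, against 0.01 over all genes. In 17 genes all AC tumours were below all model tumours, beside 9.98% of all genes, and in 0 genes were all above, beside 9.06%. The 17 included all 4 transcription factors, both Mx genes, 4 of the 8 other effectors, 2 IFIT genes, 2 sensors, 2 of the ADP-ribosylation group and 1 synthetase. By edgeR, the largest difference was that of Zbp1, at -0.61 ± 0.15 (unadjusted p = 0.00266, adjusted p = 0.248), then Cmpk2 at -0.48 ± 0.14, Rtp4 at -0.47 ± 0.14 and Mx2 at -0.47 ± 0.17. The 4 genes above 0 were Oasl1, Ifi35, Ifi27 and Samd9l, at 0.05 to 0.17. Isg15, Usp18, Oas1a, Oas2, Bst2 and Ifi204 had values from -0.12 (Isg15) to -0.00071 (Bst2), and the signs of Bst2 and Oas2 turned with the scaling. AC tumour 2 was the lowest of the 3 AC tumours in 33 of the 37 genes, and AC tumour 1 was the highest in 23. For these 2 counts the shares of all genes were not computed. Genes measured in the same library can shift together, so the counts of genes in this paragraph are not counts of independent results. Without AC tumour 2 the median was -0.17 and 6 genes were above 0. Without AC tumour 3, edgeR called Ifih1 (-0.63, adjusted p = 0.0355, against 0.0355 to 0.932 over all settings) among 569 of 17749 genes, and no other of the 37. Marker sums of some cell types lay lower in AC tumours and those of others higher, mostly with overlap. Those of conventional dendritic cells (4 markers) were 14.8, 11.9 and 15.47 CPM in AC tumours, against 18.8, 15.51 and 18.7 CPM in model tumours, so that every AC tumour was below every model tumour. Those of fibroblasts (4) were 197, 233 and 386 CPM in AC tumours, against 434, 375 and 424 CPM in model tumours, and those of T and NK cells (6) were 15.7, 10.9 and 18.3 CPM in AC tumours, against 23.6, 17.1 and 24.5 CPM in model tumours. Both overlapped between the groups, and AC tumour 2 held the lowest sum of the 6 tumours for T and NK cell and for conventional dendritic cell markers. Macrophage markers (6) leaned the other way, at 1013, 834 and 611 CPM in AC tumours, against 533, 702 and 745 CPM in model tumours. So did smooth muscle markers (5), at 47.3, 119 and 67.1 CPM, against 61.1, 43.3 and 43.4 CPM. These sums and those of the remaining cell types overlapped between the groups. The part of any of these cells in the difference was not tested.

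**Figure D5:**
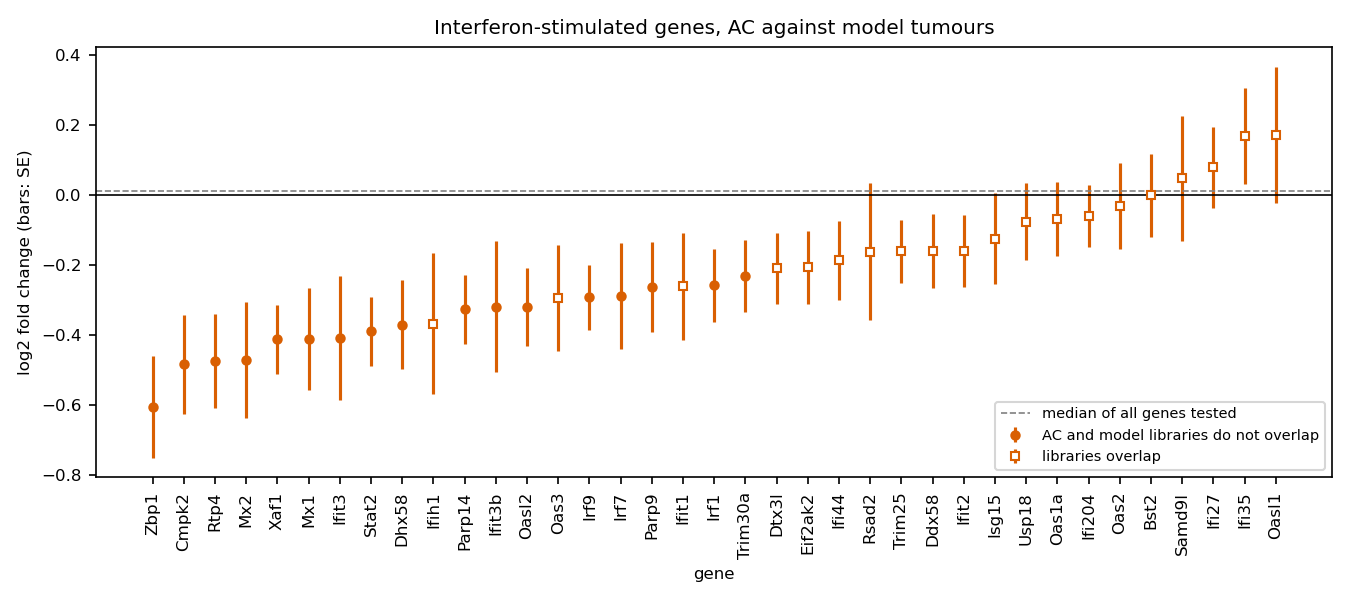
Log2 fold change of AC against model tumours for each of the 37 genes, with bars of 1 standard error from edgeR on 3 libraries per group and the median over all tested genes as a line. The values run from -0.61 for Zbp1 to 0.17 for Oasl1, and 33 lie below 0.

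In the other lists no gene was called between AC and model tumours by edgeR. Of the 5 receptors tested there, all had values above 0, from 0.02 to 0.40, and in 3 the AC tumours lay wholly above the model tumours, beside 9.06% of all genes. The 34 other interferon-stimulated genes had a median of -0.20, with 29 below 0, beside 48.6% of all genes.

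Marker levels moved with the contrast of tumour and colon. Besides epithelium and macrophages, smooth muscle markers (5) summed to 47.3 to 119 CPM in AC and 43.3 to 61.1 CPM in model tumours, against 237 to 1547 CPM in sham colon. Markers of plasmacytoid dendritic cells (5), known as a source of type I interferon, summed to 1.9 to 6.66 CPM in AC and 1.4 to 5.92 CPM in model tumours, against 34.1 to 46.2 CPM in sham colon. The markers were Siglech, Ccr9, Pacsin1, Cox6a2 and Klk1, and that sum was not carried by every marker. In sham 1 and in sham 3, 1 of the 5 had no count, while all 5 had counts in every tumour. Values of the single markers are not given here, so the sum does not measure the number of these cells. B cell markers (5) summed to 2.23 to 3.99 CPM in AC and 2.77 to 14.9 CPM in model tumours, against 52.6 to 812 CPM in sham colon. Those of T and NK cells (6) ran from 10.9 to 18.3 CPM in AC and from 17.1 to 24.5 CPM in model tumours, against 37.6 to 86.8 CPM in sham colon. Higher in tumours were endothelial markers (4), at 102 to 138 CPM in AC and 123 to 139 CPM in model tumours, against 32.1 to 36.6 CPM in sham colon. Fibroblast markers (4) stood at 197 to 386 CPM in AC and 375 to 434 CPM in model tumours, against 64.4 to 113 CPM in sham colon. Neutrophil markers (4) stood at 20.7 to 43.8 CPM in AC and 35.8 to 49.4 CPM in model tumours, against 2.27 to 6.53 CPM in sham colon. Markers of conventional dendritic cells (4) stood at 11.9 to 15.5 CPM in AC and 15.5 to 18.8 CPM in model tumours, against 4.74 to 13.8 CPM in sham colon, and overlapped between AC tumours and colon. The part of any of these in the results was not tested.

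Within sham colon, library 1 stood apart, and the 37 genes did not all differ there in the same direction. Compared with the mean of sham 2 and 3, its level was above 1.5 times for 7 genes and below 1/1.5 for 8. The shares of all genes beyond these limits were not computed, so these counts show nothing particular to the 37. The 7 were Rsad2 (2.68 times), Ifit3 (1.98), Trim30a (1.9), Ifit3b (1.82), Ifit1 (1.75), Ifi204 (1.58) and Cmpk2 (1.57). Among the 8 were Oas3 (0.37 times), Xaf1 (0.53), Dhx58 (0.54) and Irf7 (0.57). Sham 1 also held 237 CPM of smooth muscle markers, against 1422 and 1547 CPM in sham 2 and 3, and 812 CPM of B cell markers, against 109.9 and 52.6 CPM. Without sham 1, 33 of the 37 genes were lower and 4 were higher in AC tumours, and 32 were lower and 4 were higher in model tumours. Among all genes, 7007 of 18976 were then lower and 7353 higher in AC tumours. In model tumours 7086 of 19464 were then lower and 8253 higher.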

How the data were processed

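Libraries were made from Trizol RNA with the VAHTS Universal V6 kit, per the labels' protocols. The authors deposited a count table, for which the submitters' processing notes name featureCounts 1.5.0-p3, and FPKM values, which divide those deposited counts by gene length and library total. The notes name build mm9. The gene length implied by both tables was within 1% of the exon length in GENCODE M21 (GRCm38) in 96.79% of the 22279 genes that had 20 counts or more, so all coordinates are GENCODE M21 positions. Neither aligner nor strand setting is stated in the sources used here.

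The counts were tested in R 4.3.3 with the robust quasi-likelihood test of edgeR 4.0.16, on the 6 libraries of the groups compared, after filterByExpr at its defaults and with TMM scaling. P-values were adjusted by Benjamini-Hochberg over all genes, with a threshold of 0.05. All 37 genes passed the filter in all 3 comparisons. DESeq2 1.42.0, other scalings, no filter, 1 fit over all 9 libraries, a replicate block and leaving out libraries were alternatives. The test was tried on simulated counts with 200 changed genes. Library totals were 15690038 to 23476056 counts. Standard errors and p-values rest on the variation among 3 libraries per group, while floors cover counting error only. Shared 50-base words were counted between GENCODE M21 exon sequences.

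The 37 genes and all lists were chosen with earlier results of these data known, so no list-wide p is given. Genes shown by library were the 2 of each role with the highest mean FPKM, and the 6 largest falls and 6 largest rises (3 exist) in model tumours against sham colon. From each pathway list the 3 smallest adjusted p-values were named, with ligands and receptors, and genes outside that rule are said to be so. 1 gene of a pathway list is not reported here by name.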

Additional observations from a re-analysis of the deposited data

How the results depend on the processing

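Against sham colon, the counts of lower and higher genes moved by 1.5 times at most under all settings but those without scaling factors and without sham 1. In AC tumours the higher genes were 3 in place of 2 with upper-quartile factors, without the filter, with all 9 libraries fitted, with the replicate block and without AC tumour 2. Without scaling factors 6 genes were higher in AC and 6 in model tumours, with medians of -1.22 and -0.93. Without sham 1, 4 were higher in AC tumours. Leaving out 1 library gave 2 to 4 higher and 29 to 33 lower genes in AC tumours, and 3 to 4 and 29 to 32 in model tumours. All genes called, in either direction, then ran from 10899 to 14360 in AC and from 11677 to 15339 in model tumours. Between AC and model tumours, edgeR without the filter called 1 of the 37 (Zbp1) and 105 of 33023 genes. DESeq2 called 2 of the 37 and 289 of all genes, out of 33023 with a count, not all of which need have an adjusted p. Leaving out 1 library gave 0 to 1 of the 37 and 0 to 569 genes. Leaving out model tumour 1 with AC tumour 3 gave 0 of the 37 and 94 of 17132 genes. The cause was not tested.

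Signs turned for genes that were not called with TMM scaling and all libraries. In AC against model tumours, Bst2 was 0.0022 with upper-quartile factors, 0.029 without factors, 0.0011 with all 9 libraries fitted, 0.0088 with the replicate block and 0.041 without model tumour 1 and AC tumour 3. That last setting gave 0.013 for Isg15, 0.0017 for Oas2, -0.023 for Ifi27 and -0.19 for Samd9l, and Oas2 was 0.00038 without factors. Leaving out 1 library gave -0.12 to 0.064 for Bst2, -0.17 to 0.065 for Oas2, -0.027 to 0.14 for Ifi27, -0.30 to 0.046 for Rsad2 and -0.13 to 0.23 for Samd9l. In model tumours against sham colon, Ddx58 was 0.028 with upper-quartile factors, 0.055 without the filter, 0.59 without factors and -0.10 to 0.046 with 1 library left out. Without factors, Oas2 was 0.41, Ifi27 0.36 and Ifnar1 0.45 there, and in AC tumours Ddx58 was 0.46, Oas2 0.41, Ifi27 0.47 and Ifnar1 0.50. Of these values without factors, those of Ddx58, Ifi27 and Ifnar1 were called higher in both kinds of tumour, and those of Oas2 were not called. The median level of the 37 genes per length was 12.7, 15.0 and 38.7 FPKM in AC tumours, model tumours and sham colon with TMM scaling, against 14.9, 17.2 and 28.8 FPKM as deposited.

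Same-numbered libraries did not consistently deviate together (r from -0.53 to 0.44 over 9 pairs, 2 over 0.1). Deviations from a mean of 3 libraries are tied to each other, so these values cannot exclude that the numbers pair the samples. With the replicate block, 3 genes were higher and 30 lower in both kinds of tumour, and none was called between AC and model tumours. Among all genes, 5966 of 17832 were then higher and 5337 lower in AC tumours against sham colon. In model tumours 6275 of 18228 were higher and 5499 lower.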
